A study of Homo sapiens with 8 samples.

Results

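The effect of an HNF4G transgene on the transcriptome of 22Rv1 prostate cancer cells, in the absence of an inhibitor, was examined by comparing the 2 libraries of the group HNF4G-DMSO with the 2 libraries of GFP-DMSO. All genes with a mean of at least 10 over the 8 libraries of the series were taken, 17876 of 57603 identifiers. 22Rv1 is a castration-resistant human prostate cancer line. The study made derivatives of it that express GFP, as the control, or HNF4G from the murine stem cell virus promoter, and both received the vehicle DMSO for 24 hours. In the other 4 libraries the same lines received 25 nM ABBV-075, an inhibitor of BET bromodomain proteins, for 24 hours. Neither the labels nor the methods name more than 1 derivation of each line, so an effect of the transgene and any other lasting difference of that line cannot be told apart. Nothing states that libraries with the same label were grown as separate cultures, and the p-values therefore reflect library-to-library spread that may be technical.

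HNF4G belongs to the HNF4 family of nuclear receptors, which bind direct repeats in DNA as dimers and switch on genes of absorptive and secretory epithelium. Its close relative HNF4A is a master regulator of hepatocytes and enterocytes, while HNF4G is known mainly from the intestine. Normal luminal cells of the prostate do not run this programme, and some castration-resistant tumours do.

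The values were normalized counts, the reads of a gene divided by 1 size factor for its library. Read totals were 36926984 and 35086425 for GFP-DMSO and 36525929 and 40262678 for HNF4G-DMSO (here and below number 1, then number 2). Weighted by reads, the GC content of the transcripts averaged 47.6% and 47.5% in GFP-DMSO and 47.4% in HNF4G-DMSO number 1. HNF4G-DMSO number 2 stood apart at 46.3%. Luminal markers were abundant in all 4 libraries, with EPCAM between 4416 and 4760 and HOXB13 between 8768 and 11364. The T cell marker CD3E, the endothelial marker CDH5 and the enterocyte enzyme ALPI were at 0 in all 4, and KRT5 and KRT14 of basal cells did not exceed 2.59. The summed levels of the marker lists were 1467 and 1675 in GFP-DMSO and 1777 and 2180 in HNF4G-DMSO for basal cells and 2066 and 2007 against 1670 and 1660 for stroma, and their part in the results was not tested. The libraries are bulk RNA, in which a change in the number of cells that express a gene and a change in its RNA per cell cannot be told apart.

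Promoters that carry binding motifs of the HNF families are shown here for called genes described further on. A set of 3 motifs was searched on both strands of the 300 bases from 250 before to 50 after each gene start (RefSeq, GRCh38.p14). They were CAAAGTCCA, an HNF4-specific site, CAAAGGTCA, a direct repeat element shared by several nuclear receptors, and GTTAAT followed by any base and ATT, part of the site of the HNF1 family. The 250 bases before the start are printed, 5′ to 3′ on the strand of the gene, with the matches in capitals.
CYP2C8 (chr10:95069498-95069747, minus strand): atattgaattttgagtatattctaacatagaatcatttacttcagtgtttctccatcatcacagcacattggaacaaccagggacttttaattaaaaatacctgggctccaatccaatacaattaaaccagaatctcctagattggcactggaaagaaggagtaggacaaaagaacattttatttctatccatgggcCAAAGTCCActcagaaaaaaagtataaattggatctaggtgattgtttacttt
SLC26A3 (chr7:107803224-107803473, minus strand): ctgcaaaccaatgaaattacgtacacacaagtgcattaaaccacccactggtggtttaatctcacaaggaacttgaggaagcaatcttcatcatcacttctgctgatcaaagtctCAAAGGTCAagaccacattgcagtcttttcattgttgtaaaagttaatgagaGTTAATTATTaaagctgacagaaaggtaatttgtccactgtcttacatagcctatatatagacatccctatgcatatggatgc
DDC (chr7:50565406-50565655, minus strand): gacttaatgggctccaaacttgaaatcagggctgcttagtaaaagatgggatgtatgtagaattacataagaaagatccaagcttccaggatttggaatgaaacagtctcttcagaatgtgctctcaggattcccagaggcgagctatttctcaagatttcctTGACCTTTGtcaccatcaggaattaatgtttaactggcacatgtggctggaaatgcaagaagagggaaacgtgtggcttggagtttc
AFP (chr4:73435971-73436220, plus strand): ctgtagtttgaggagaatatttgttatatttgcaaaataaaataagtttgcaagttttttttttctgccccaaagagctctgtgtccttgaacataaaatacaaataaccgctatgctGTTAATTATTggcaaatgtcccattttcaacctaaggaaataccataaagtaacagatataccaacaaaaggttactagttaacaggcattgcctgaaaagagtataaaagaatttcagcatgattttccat

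The table of promoters held 117 of the 140 genes that were called higher in HNF4G-DMSO, 16 of the 21 called lower and 11944 of the 17876 tested. The site CAAAGTCCA was in 1 of the 117 (0.855%), CYP2C8, where it began 53 bases before the gene start, against 0.268% of the tested genes and 0.359% of all 27305 promoters of the table. CAAAGGTCA was in 2 of the 117 (1.71%), against 0.234% of the tested genes and 0.410% of all promoters. These 2 were SLC26A3, 135 bases before the start, and DDC, where the match lay on the opposite strand and reads TGACCTTTG as printed, 87 bases before the start. The HNF1 family motif was likewise in 2 of the 117 (1.71%), AFP and SLC26A3, against 0.184% of the tested genes and 0.293% of all. None of the 16 promoters of genes called lower held any of the 3. These are counts of letters in short windows and show no binding, and the shares rest on 1 or 2 promoters each.

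HNF4G itself was read at 1088 and 993 normalized counts in GFP-DMSO and 10109.5 and 12104 in HNF4G-DMSO, so the groups were far apart and no library went against its label. Differences below are HNF4G-DMSO minus GFP-DMSO on the scale of log2(normalized count + 1), given with their SE, and p-values are from limma with Benjamini-Hochberg adjustment over all 17876 genes. For HNF4G the difference was 3.41 ± 0.15, or 10.6-fold, with a limma adjusted p of 0.000234. The gene lies on chromosome 8, 75407914 to 75566834 (GENCODE 44, GRCh38, as below). The control cells thus also expressed HNF4G, and gene counts do not separate reads of the transgene from those of the resident gene. HNF4A, chosen for mention after its values were seen, had 18.4 and 13.1 normalized counts in GFP-DMSO and 101 and 84.7 in HNF4G-DMSO. Its difference was 2.50 ± 0.46, with a limma adjusted p of 0.0602, and it was not called. It was called in the fit corrected for GC content and length, described next. Whether reads of the transgene were assigned to this relative was not examined.

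Across the transcriptome, 161 genes differed at a limma adjusted p under 0.05, 0.901% of those tested. Of these, 140 were higher (0.783%) and 21 lower (0.117%) in HNF4G-DMSO. The called genes were mostly higher, and the larger differences were too: 97 of the 140 were higher by at least 1 on the log2 scale and 30 by at least 2, while 10 of the 21 were lower by at least 1 and 4 by at least 2. The median log2 difference was 1.22 among the genes called higher, -1.0 among those called lower and 0.0017 among all tested. The HNF4G-DMSO and GFP-DMSO libraries did not overlap for any of the 161, beside 26.6% of all tested genes that did not overlap with HNF4G-DMSO higher and 25.1% with it lower. Protein-coding genes made up 138 of the 140 and 19 of the 21. After a correction of each library for GC content and length, 642 genes were higher (3.59%) and 897 lower (5.02%), so the excess of rises over falls was not kept, while all 161 genes were called again in the same direction. Without the pair of libraries of lowest GC content, HNF4G-DMSO number 2 and HNF4G-ABBV-075 number 1, 619 were higher (3.46%) and 546 lower (3.05%).

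**Figure D1:**
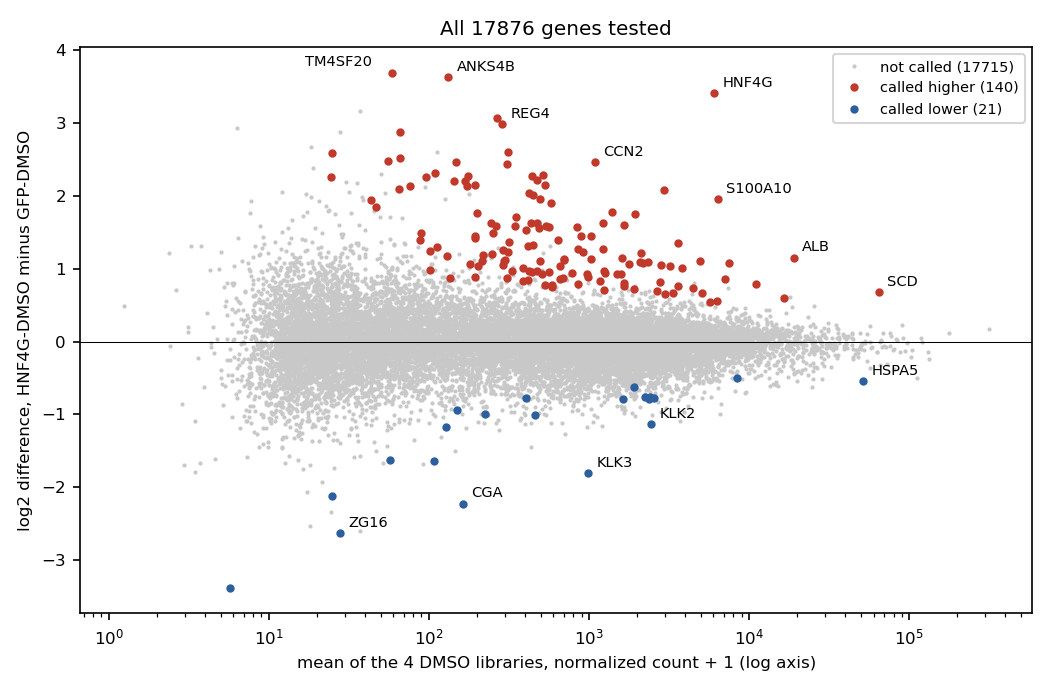
Log2 difference between HNF4G-DMSO and GFP-DMSO for the 17876 genes tested (vertical axis) against the mean normalized count of the 4 DMSO libraries plus 1 (horizontal log axis), with 140 genes called higher in red and 21 called lower in blue. HNF4G stands at 3.41, ANKS4B at 3.63 and TM4SF20 at 3.69, and the called genes of highest count, SCD and HSPA5, differ by less than 1.

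The calls rested on both libraries of a group. Without GFP-DMSO number 1, 17 of the 161 passed, without number 2, 16, and without HNF4G-DMSO number 1 or number 2, 69 and 49. Without GFP-ABBV-075 number 1 or number 2, which add only to the estimate of the spread, 89 each passed, and without either HNF4G-ABBV-075 library all 161 did. All 161 kept their direction in all 8 of these fits. In the fits on recovered reads, edgeR called all 161 and DESeq2 158. Those that passed in all 8 numbered 13. They included HNF4G, REG4, F5, CCN2, ANXA2, NT5E, OPTN, UGT2B15, S100A10, ALDH1A1 and AKR1C2, which were higher, and CGA, which was lower.

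The HNF signature of gastrointestinal genes, which the study defined on other samples, was read first. Apart from HNF4G it had 10 tested members, of which 4 rose, 0 fell and all 10 had a log2 difference above 0, with a median of 0.54. Beside the uncorrected counts of this and every later list stand 0.783% of all tested genes called higher and 0.117% called lower. APOH, a plasma phospholipid-binding protein, had 105 and 84.9 normalized counts in GFP-DMSO and 482 and 552 in HNF4G-DMSO, a log2 difference of 2.44 ± 0.28 (limma adjusted p = 0.00808). CLRN3, a tetraspan membrane protein of the clarin family, had 50.3 and 39.4 normalized counts in GFP-DMSO and 227 and 275 in HNF4G-DMSO, a difference of 2.46 ± 0.35 (0.0204 by limma, adjusted). UGT2B15, which conjugates androgens to glucuronic acid, rose by 2.08 ± 0.14 and AKR1C3, a reductase that makes testosterone, by 1.02 ± 0.10. The groups did not overlap in any of these 4. Of the members that were not called, MUC13, a transmembrane mucin, was at 2096 and 1769.8 against 2599.6 and 2946 (log2 difference 0.52 ± 0.14), SGK2, a serine kinase, at 372 and 333 against 470.3 and 579 (0.57 ± 0.16), the methyltransferase METTL7B at 1183 and 1202 against 1647 and 1388 (0.34 ± 0.12), the cytoskeletal protein GAS2 at 815 and 902 against 957 and 1115 (0.27 ± 0.16) and ANG, a secreted ribonuclease, at 943 and 910.2 against 1050.1 and 910.1 (0.08 ± 0.13). Of the called members, 1 and 1 of these 4 passed without GFP-DMSO number 1 or number 2 (limma adjusted p up to 0.176 and 0.224), and 3 and 2 without HNF4G-DMSO number 1 or number 2 (up to 0.09 and 0.166).

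Genes of the intestinal brush border, the lawn of microvilli on absorptive cells, were the list with the highest median. Of 33 listed members 20 passed the filter on the mean, which a gene can also pass through high values in HNF4G-DMSO alone. Among these 20, 8 rose, 0 fell and 19 had a log2 difference above 0, with a median of 1.42 beside 0.0017 over all tested genes. The peptide transporter SLC15A1 was at 20.3 and 17.2 normalized counts in GFP-DMSO and 115 and 109 in HNF4G-DMSO, and the log2 difference was 2.52 ± 0.23 (limma adjusted p = 0.00328). CDH17, the liver-intestine cadherin, had 194 and 197 normalized counts in GFP-DMSO and 820.3 and 926 in HNF4G-DMSO, which is 2.15 ± 0.21 (limma adjusted p = 0.0043). For MYO1A, the myosin that ties the microvillus membrane to its actin core, the values were 803 and 836 normalized counts in GFP-DMSO and 2363 and 2635 in HNF4G-DMSO, a difference of 1.60 ± 0.14 (limma adjusted p = 0.00264). In each of these the lower HNF4G-DMSO library was far above the higher GFP-DMSO library. Also higher was the tetraspan protein TM4SF20, at 4.84 and 11.1 against 96.0 and 120 (3.69 ± 0.45). Outside HNF4G-DMSO it did not exceed 11.1 in any library, so it passed the filter only through that group. The other members that rose were the galectin LGALS4 (2.03 ± 0.23), the peptidase MME (2.02 ± 0.20), the chloride exchanger SLC26A3 (1.63 ± 0.25), whose promoter is printed above, and the scaffold USH1C (2.14 ± 0.24). When 1 library was left out, 1 and 0 of these 8 passed without GFP-DMSO number 1 or number 2 (limma adjusted p up to 0.317 and 0.228), and 5 and 5 without HNF4G-DMSO number 1 or number 2 (up to 0.0988 and 0.244).

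The microvillus linker proteins did not move as 1 block. USH1C, or harmonin, and ANKS4B are scaffolds that bind each other at the tips of microvilli and anchor the protocadherins CDHR2 and CDHR5 there. USH1C was at 61.9 and 63.6 normalized counts in GFP-DMSO and 289 and 271 in HNF4G-DMSO. ANKS4B, on chromosome 16, 21233699 to 21253850, was at 18.4 and 19.2 normalized counts in GFP-DMSO and 229.8 and 258 in HNF4G-DMSO, a log2 difference of 3.63 ± 0.36 (limma adjusted p = 0.0043) and the second largest rise among all called genes. CDHR5 was at 10.6 and 12.1 against 19.4 and 21.6 (0.80 ± 0.37) and CDHR2 at 65.8 and 86.9 against 76.6 and 80.4 (0.05 ± 0.20), and neither was called. The actin-bundling proteins of the microvillus core were not called either: VIL1, or villin, was at 3181 and 2883 against 4511 and 4261 (0.53 ± 0.10, limma adjusted p = 0.0627), PLS1 at 1963 and 1944 against 2095 and 2478 (0.22 ± 0.15) and ESPN at 23.2 and 30.3 against 48.5 and 30.2 (0.51 ± 0.43). ALPI and FABP2, which define mature enterocytes, were at 0 in all 4 libraries, and the sucrase SI was at 145 and 179.8 against 242 and 289 (0.71 ± 0.36, not called).

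Secreted and surface proteins of gut epithelium outside that list also differed, not all in the same direction. The goblet cell lectin ZG16 was called lower and is described with the falls, not counted here. REG4, a secreted lectin of intestinal mucosa, was at 61.9 and 64.7 normalized counts in GFP-DMSO and 505 and 508 in HNF4G-DMSO, a log2 difference of 2.98 ± 0.14 with a limma adjusted p of 0.000236, and the replicates were closely spaced. PIGR, which carries immunoglobulin A across epithelia, had 14.5 and 17.2 normalized counts in GFP-DMSO and 86.3 and 99.4 in HNF4G-DMSO (2.48 ± 0.26). HHLA2, a B7 family ligand of lymphocytes, was at 37.7 and 34.3 against 184 and 179.8 (2.31 ± 0.28) and the membrane protease TMPRSS4 at 66.8 and 51.5 against 315 and 262 (2.27 ± 0.31). PDZK1IP1, a small membrane protein of kidney and gut epithelium, differed by 2.26 ± 0.28, the metalloprotease MEP1A of the brush border by 1.49 ± 0.22 and the adhesion molecule CEACAM6 by 1.05 ± 0.14. Among 10 tested mucins and secreted gut products REG4 was the only one called, with a list median of 0.36. The abundant member SPINK1, a trypsin inhibitor, was at 4740.1 and 4505 against 5164 and 5153 (0.16 ± 0.10) and AGR2, a disulfide isomerase of mucus cells, at 530.3 and 557 against 804 and 815 (0.57 ± 0.13), neither of them called. Only REG4 among them passed in all 8 fits that left out a library. With ANKS4B included, 1 and 1 of these 8 passed without GFP-DMSO number 1 or number 2 (limma adjusted p up to 0.266 and 0.24), and 3 and 3 without HNF4G-DMSO number 1 or number 2 (up to 0.115 and 0.19).

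**Figure D2:**
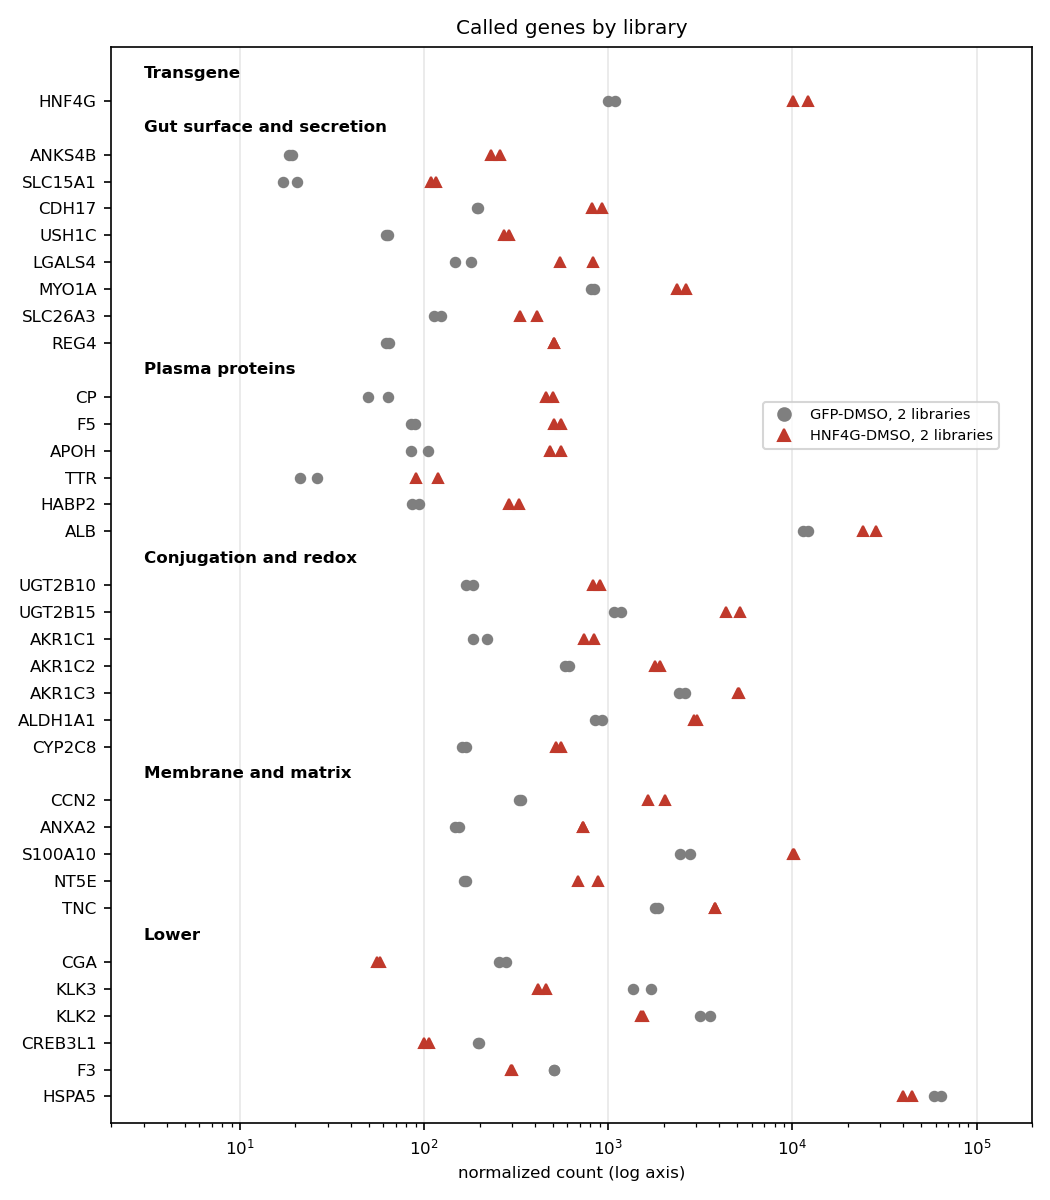
Normalized counts (horizontal log axis) of called genes in the 2 GFP-DMSO libraries (grey circles) and the 2 HNF4G-DMSO libraries (red triangles), grouped by role. The groups do not overlap for any gene shown, with REG4 near 63 against 507 and CGA near 267 against 56.3 on average.

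Plasma proteins of the kind secreted by liver made up the next group. Of 20 tested genes of coagulation, complement and plasma, 7 rose and 1 fell, with a median of 0.40. Ceruloplasmin (CP), a copper ferroxidase, was at 49.4 and 63.6 normalized counts in GFP-DMSO and 457 and 500.4 in HNF4G-DMSO, a log2 difference of 3.07 ± 0.26 (limma adjusted p = 0.0025). Coagulation factor V (F5) had 89.0 and 84.9 normalized counts in GFP-DMSO and 510.0 and 556 in HNF4G-DMSO, a difference of 2.6 ± 0.19 (limma adjusted p = 0.00159). ALB, or albumin, was abundant in the control cells too and had 12208 and 11418 normalized counts in GFP-DMSO and 24079 and 28575 in HNF4G-DMSO, a difference of 1.15 ± 0.12 (limma adjusted p = 0.00499). The groups were apart in all 3. Transthyretin (TTR) differed by 2.09 ± 0.27, alpha-fetoprotein (AFP) by 1.85 ± 0.30, the hyaluronan-binding protease HABP2 by 1.77 ± 0.30 and complement C5 by 1.03 ± 0.16. Other members did not pass: PROS1, a cofactor of protein C, was at 1331 and 1337 against 2054 and 2310.2 (0.71 ± 0.16), the precursor protein AMBP at 528 and 456 against 459.6 and 384 (-0.22 ± 0.15) and the haem carrier HPX at 139 and 123 against 102 and 51.9 (-0.84 ± 0.28). CYP3A4, which defines mature hepatocytes, was at 1.94 or below in all 4 libraries.

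The initiator of coagulation and its inhibitor moved in opposite directions. Tissue factor (F3) was at 510.0 and 509 normalized counts in GFP-DMSO and 295 and 299.9 in HNF4G-DMSO and fell by 0.78 on the log2 scale (limma adjusted p = 0.0359). TFPI, which blocks tissue factor, was at 1956 and 2063 normalized counts in GFP-DMSO and 3416 and 3701 in HNF4G-DMSO and rose by 0.82 ± 0.12 (limma adjusted p = 0.0208). In the list of 23 apolipoproteins and lipid transporters APOH alone was called, and the list median was 0.06. Its abundant members SCARB1 (8322 and 8060.3 against 8017 and 5673), the scavenger receptor for lipoproteins, and SAR1B (3811 and 3717 against 3663 and 4201), a GTPase of lipoprotein secretion, had differences of -0.28 ± 0.21 and 0.06 ± 0.12. For the plasma proteins with APOH, TFPI and F3, 1 and 2 of these 10 passed without GFP-DMSO number 1 or number 2 (limma adjusted p up to 0.341 and 0.316), and 4 and 3 without HNF4G-DMSO number 1 or number 2 (up to 0.192 and 0.343).

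Enzymes that conjugate and reduce steroids and drugs rose in part. Of 23 conjugating enzymes 3 rose and 0 fell (list median 0.12), and of 39 oxidizing and reducing enzymes 8 rose and 0 fell (0.08). UGT2B15 was at 1074 and 1169 normalized counts in GFP-DMSO and 4334 and 5189.9 in HNF4G-DMSO (limma adjusted p = 0.000998). UGT2B10 was at 184 and 169.7 against 826 and 897 (2.28 ± 0.30) and UGT2B11 at 55.2 and 38.4 against 127 and 134 (1.48 ± 0.24). UGT2B17, which inactivates the same androgens as UGT2B15, was at 18.4 and 7.07 against 48.5 and 64.0 (2.18 ± 0.85) and was not called. UGT2B genes, like AKR1C genes, are near-identical copies whose reads the counting can split, so which copy differed is uncertain. The sulfotransferases and glutathione transferases were not called, and the abundant MGST1 was at 8396 and 8271 against 8682 and 9458 (0.12 ± 0.10).

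The reductases of the AKR1C cluster, which interconvert active and inactive steroid hormones, were higher together. AKR1C3 was at 2613 and 2427 normalized counts in GFP-DMSO and 5057 and 5133 in HNF4G-DMSO (limma adjusted p = 0.0043). AKR1C2 was at 615 and 581 against 1898 and 1789 (1.62 ± 0.12) and AKR1C1 at 219 and 185 against 834 and 739 (1.96 ± 0.20). With UGT2B15 these made 4 rises and 0 falls among 18 genes of androgen synthesis and inactivation, a list with a median of 0.23. The steroid dehydrogenase HSD17B4 was at 12470.5 and 12397 against 11582 and 13327 (-0.0011 ± 0.11) and the 5-alpha reductase SRD5A1 at 1751 and 1845 against 1706 and 1896 (0.0011 ± 0.11), neither of them called. AKR1C1 and AKR1C2, with the exporter ABCC2, were also the 3 called members of the 18 tested NRF2 targets, whose median was -0.03. The oxidoreductases TXNRD1 (-0.01 ± 0.11) and NQO1 (-0.01 ± 0.12), which define that response, were not called.

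Retinoid and xenobiotic enzymes followed. ALDH1A1, which makes retinoic acid from retinal, was at 851 and 926 normalized counts in GFP-DMSO and 2933 and 3019 in HNF4G-DMSO, a log2 difference of 1.74 ± 0.12 (limma adjusted p = 0.000998). DHRS3, which reduces retinal back to retinol, was at 558 and 511 against 1128 and 938 (0.94 ± 0.15). CYP2C8, a drug-oxidizing cytochrome P450 whose promoter holds the HNF4-specific site printed above, was at 168 and 161 normalized counts in GFP-DMSO and 522 and 554 in HNF4G-DMSO, a difference of 1.70 ± 0.17 (limma adjusted p = 0.0043). Aldehyde oxidase (AOX1) rose by 1.62 ± 0.18, FMO5 by 1.23 ± 0.20 and the lactonase PON1 by 0.69 ± 0.11. The dioxin-induced CYP1A1 was at 181 and 212 against 121 and 124 (-0.67 ± 0.14) and was not called. Over the conjugating, steroid, retinoid and drug enzymes named here as called, 3 and 3 of these 12 passed without GFP-DMSO number 1 or number 2 (limma adjusted p up to 0.376 and 0.316), and 7 and 5 without HNF4G-DMSO number 1 or number 2 (up to 0.18 and 0.302).

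Transporters of peptides, conjugates, iron and anions were among the called genes. Among 22 solute carriers of gut, liver and kidney 4 rose and 0 fell, with a median of 0.27, and among 13 genes of bile acid handling 2 rose and 0 fell, with a median of 0.41. ABCC2, which exports glucuronides at the apical membrane, was at 270.0 and 264 normalized counts in GFP-DMSO and 721 and 899.7 in HNF4G-DMSO (1.59 ± 0.24, limma adjusted p = 0.0252). Its basolateral counterpart ABCC3 was at 7.74 and 7.07 against 45.6 and 33.7 (2.26 ± 0.37). Outside HNF4G-DMSO, ABCC3 did not exceed 9.26 in any library, so it passed the filter on the mean only through that group. SLC40A1, or ferroportin, the iron exporter that works with the ferroxidase CP, was at 702 and 730.4 normalized counts in GFP-DMSO and 1681 and 1781 in HNF4G-DMSO (1.27 ± 0.12, limma adjusted p = 0.00427). The bile acid receptor NR1H4 was at 141 and 99.0 against 233 and 286 (1.12 ± 0.23) and was not called. With the glutamate carrier SLC1A1 (0.89 ± 0.15) and the amino acid carrier SLC7A8 (0.70 ± 0.12), 0 and 0 of these 5 passed without GFP-DMSO number 1 or number 2 (limma adjusted p up to 0.342 and 0.345), and 1 and 1 without HNF4G-DMSO number 1 or number 2 (up to 0.214 and 0.277).

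In intermediary metabolism, lists of whole pathways held 1 or 2 called genes each. Of 26 genes of fatty acid oxidation and ketogenesis 1 rose and 1 fell, with a median of 0.05. The fall was that of ACSL1, which activates long-chain fatty acids, at 1893 and 2216 normalized counts in GFP-DMSO and 1108 and 1268 in HNF4G-DMSO (-0.79 ± 0.13). SCD, the desaturase of fatty acid synthesis, was at 49629.5 and 50213 normalized counts in GFP-DMSO and 73570.4 and 86164 in HNF4G-DMSO, a difference of 0.67 ± 0.11, and was the only called gene of 33 in cholesterol and fatty acid synthesis (median 0.08). Hexokinase 1 (HK1) was at 9849 and 9904 against 7236 and 6788 (-0.49 ± 0.08) and was the only called gene of 13 in gluconeogenesis and carbohydrate use (median -0.08). Of 25 genes of amino acid and one-carbon metabolism only DDC was called, which makes dopamine and serotonin and was at 651 and 637 normalized counts in GFP-DMSO and 1463 and 1375 in HNF4G-DMSO (1.14 ± 0.14). Monoamine oxidase A (MAOA), which degrades those amines, was at 4849 and 5204 against 8785 and 9413 (0.86 ± 0.11), and catalase (CAT) at 4903 and 5366 against 7439 and 7671 (0.56 ± 0.10). With the histamine methyltransferase HNMT (0.87 ± 0.13), DDAH1 (0.60 ± 0.10), which degrades methylated arginines, the acyl-CoA synthetase ACSM3 (0.80 ± 0.11) and the lipase LIPG (0.83 ± 0.13), 0 and 0 of these 10 passed without GFP-DMSO number 1 or number 2 (limma adjusted p up to 0.502 and 0.352), and 1 and 0 without HNF4G-DMSO number 1 or number 2 (up to 0.183 and 0.304).

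Surface and membrane-scaffold genes included a pair whose products act as 1 complex. ANXA2, an annexin, and S100A10 form a heterotetramer under the plasma membrane. ANXA2 was at 147 and 155 normalized counts in GFP-DMSO and 726 and 731 in HNF4G-DMSO, a log2 difference of 2.27 ± 0.14 (limma adjusted p = 0.000556). S100A10 was at 2786 and 2463 normalized counts in GFP-DMSO and 10204 and 10074 in HNF4G-DMSO, a difference of 1.95 ± 0.10 (limma adjusted p = 0.000236). Both passed in every fit that left out a library, and in both the lowest HNF4G-DMSO value was over the highest GFP-DMSO value by a wide margin. Other members of their families did not differ in this way: ANXA1 was at 91.9 and 101 against 79.5 and 82.1 (-0.25 ± 0.22) and S100A11 at 5855 and 5611 against 5868 and 4729 (-0.12 ± 0.13), while S100P was lower, at 605 and 622 against 322 and 289.5 (-1.0 ± 0.12). NT5E, or CD73, which makes adenosine at the cell surface, was at 168 and 165 normalized counts in GFP-DMSO and 685 and 881 in HNF4G-DMSO, a difference of 2.21 ± 0.17 (limma adjusted p = 0.00194). Caveolin-1 (CAV1) rose by 1.44 ± 0.15, the membrane-repair protein MYOF by 1.11 ± 0.14, calpain 2 (CAPN2) by 1.11 ± 0.14 and stomatin (STOM) by 1.07 ± 0.11. In this set, 3 and 3 of these 7 passed without GFP-DMSO number 1 or number 2 (limma adjusted p up to 0.197 and 0.161), and 5 and 5 without HNF4G-DMSO number 1 or number 2 (up to 0.0772 and 0.143).

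Genes of the extracellular matrix and its receptors were higher in 4 of 36 tested cases and lower in 0, with a median of 0.29 and 28 of 36 above 0. Tenascin C (TNC) was at 1868 and 1802 normalized counts in GFP-DMSO and 3819 and 3798 in HNF4G-DMSO, a log2 difference of 1.05 ± 0.10 (limma adjusted p = 0.0043). Integrin alpha-1 (ITGA1) differed by 1.15 ± 0.16 and fibronectin (FN1) by 0.96 ± 0.15. The abundant ITGB1 (0.13 ± 0.13), the partner of ITGA1, and LAMC1 (0.05 ± 0.12), a laminin chain, were not called. CDH2, or N-cadherin, was at 142 and 158 against 336 and 353 (1.20 ± 0.15) and CDH1, or E-cadherin, at 13433 and 13838 against 14516 and 14654 (0.10 ± 0.09, not called), and CDH17 and CDH2 were the only called genes of 29 cadherins, claudins and keratins (median 0.05).

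CCN2, a secreted matricellular protein and a target of the YAP/TEAD pathway, was at 336 and 326 normalized counts in GFP-DMSO and 2041 and 1649 in HNF4G-DMSO, a log2 difference of 2.47 ± 0.13 (limma adjusted p = 0.000318). Of 22 tested YAP/TEAD targets 3 rose, CCN2, NT5E and IGFBP3 (0.67 ± 0.09), and 1 fell, F3, with a median of 0.19. CCN1, the other classical matricellular target, was at 188 and 175 against 233 and 199.6 (0.25 ± 0.14), ANKRD1 at 4.84 and 15.2 against 10.7 and 8.64 (0.13 ± 0.51) and AJUBA at 1123 and 1161 against 1373 and 1479.6 (0.32 ± 0.10), and none of them was called. The integrin ligands NPNT (0.76 ± 0.11) and EDIL3 (1.26 ± 0.21) and the proteoglycans SDC2 (1.09 ± 0.11) and GPC3 (1.06 ± 0.15) rose as well. For CCN2 with these and the called matrix and adhesion genes, 1 and 1 of these 9 passed without GFP-DMSO number 1 or number 2 (limma adjusted p up to 0.37 and 0.3), and 4 and 2 without HNF4G-DMSO number 1 or number 2 (up to 0.167 and 0.244).

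Receptors and signalling genes that rose were MET, the receptor of hepatocyte growth factor, at 447 and 563 normalized counts in GFP-DMSO and 1117 and 1310.2 in HNF4G-DMSO (1.27 ± 0.17), LGR5, the R-spondin receptor of intestinal stem cells, at 420.0 and 453 normalized counts in GFP-DMSO and 913 and 1009 in HNF4G-DMSO (1.14 ± 0.15), and IGFBP3. These were 3 of 43 tested growth factors, receptors and ligands, of which 0 fell and whose median was 0.11. HGF, the ligand of MET, was at 3420.1 and 3462 against 4975 and 5131 (0.55 ± 0.11, limma adjusted p = 0.0805, not called) and FGFR4 at 274 and 195 against 924 and 568 (1.64 ± 0.34, not called). Of 27 immediate early and ERK feedback genes 2 rose, the ERK phosphatase DUSP6 at 266 and 244 against 534 and 498 (1.01 ± 0.12) and the ETS factor ETV1 at 1160.3 and 1292 against 2032 and 2109 (0.76 ± 0.13), with a list median of 0.04. SMAD3 (0.78 ± 0.12), the protease-activated receptor F2RL1 (0.93 ± 0.14), the prostaglandin receptor PTGFR (1.39 ± 0.14) and the secreted Wnt inhibitor WIF1 (0.75 ± 0.13) rose as well. In this group, 0 and 0 of these 9 passed without GFP-DMSO number 1 or number 2 (limma adjusted p up to 0.422 and 0.348), and 2 and 1 without HNF4G-DMSO number 1 or number 2 (up to 0.193 and 0.257).

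Several called genes are best known from neurons, a grouping made after their values were seen. The adhesion molecules NRCAM (240.0 and 244 against 815 and 1016, 1.91 ± 0.19) and CHL1 (51.3 and 66.7 against 239.5 and 310.3, 2.20 ± 0.23) are relatives of L1, and CNTN4 (1.03 ± 0.16), NEGR1 (0.86 ± 0.12) and AMIGO2 (0.97 ± 0.15) are further neuronal adhesion molecules. The guidance molecules SEMA3D (47.4 and 52.5 against 218 and 252, 2.21 ± 0.21), EFNB2 (1.45 ± 0.11) and FLRT3 (1.58 ± 0.18) rose. The GABA receptor subunits GABRQ (256 and 235 against 658 and 803, 1.56 ± 0.17) and GABRE (224 and 189.9 against 641 and 556, 1.53 ± 0.15), the glutamate receptor GRM8 (1.23 ± 0.17) and the potassium channel KCNJ3 (380.3 and 469 against 1174 and 1350.0, 1.57 ± 0.15) rose too. Of 15 tested neuroendocrine and glycoprotein hormone genes, DDC rose and CGA fell, with a median of 0.22. The neuroendocrine markers SYP (-0.16 ± 0.10), CHGA (0.17 ± 0.27) and CHGB (0.11 ± 0.11) were not called, and INSM1 did not exceed 1.94 in any of the 4 libraries. With the protocadherin PCDH19 (0.87 ± 0.14), 1 and 1 of these 13 passed without GFP-DMSO number 1 or number 2 (limma adjusted p up to 0.356 and 0.297), and 9 and 5 without HNF4G-DMSO number 1 or number 2 (up to 0.167 and 0.314).

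Further called genes belonged to none of the lists, and the groups used here were formed after their values were seen. Enzymes that build glycans included ST6GAL1, which adds sialic acid to N-glycans, at 1279 and 1263 normalized counts in GFP-DMSO and 2904 and 3015 in HNF4G-DMSO (1.22 ± 0.11), B3GNT3 (0.97 ± 0.16), which extends O-glycans, MGAT4C (1.36 ± 0.19) and the mannosidase MAN1A1 (0.94 ± 0.14). All 4 rose. Regulators of the actin cytoskeleton were NET1, an exchange factor for small GTPases, at 8185 and 7996 normalized counts in GFP-DMSO and 13553 and 14402 in HNF4G-DMSO (0.79 ± 0.10), the Rac activator subunit ELMO1 (1.31 ± 0.17), CAP2 (0.92 ± 0.14), RHOBTB1 (0.97 ± 0.16) and the scaffold PEAK1 (1.95 ± 0.22). The orphan receptor GPRC5A was at 212 and 213 against 686 and 637 (1.63 ± 0.13), and OPTN, or optineurin, an autophagy receptor, at 27.1 and 27.3 against 121 and 124 (2.13 ± 0.17, limma adjusted p = 0.00211). Others of high abundance were PBLD (3255 and 3022 against 6308 and 7261, 1.11 ± 0.12), C12orf75 (2171 and 1918 against 5175 and 5225, 1.35 ± 0.11), the transcriptional corepressor IRF2BP2 (0.73 ± 0.10) and TMBIM1 (0.54 ± 0.09). Genes known from other lineages also rose, among them the T-box factor EOMES (54.2 and 65.7 against 139.6 and 146, 1.25 ± 0.20), the antigen-loading chain HLA-DMB (129 and 133 against 303 and 298, 1.19 ± 0.15) and secretagogin (SCGN, 107 and 101 against 296 and 264, 1.42 ± 0.14), a calcium-binding protein of endocrine cells.

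The 21 genes that were lower included the kallikreins KLK3, which encodes prostate-specific antigen, and KLK2, its neighbour. KLK3 was at 1711 and 1359 normalized counts in GFP-DMSO and 457 and 414 in HNF4G-DMSO, a log2 difference of -1.81 ± 0.17 (limma adjusted p = 0.0043). KLK2 was at 3556 and 3142 normalized counts in GFP-DMSO and 1548 and 1509 in HNF4G-DMSO, a difference of -1.13 ± 0.11 (limma adjusted p = 0.0043). Neither gene overlapped between groups. They were the only called members of 42 androgen-induced genes, of which 31 had a log2 difference below 0, with a median of -0.20. This count turned on the processing: 23 of the 42 were called lower and 1 higher with the GC and length correction. In that fit 5.02% of all tested genes were called lower and 3.59% higher. In 23 of the 42 the libraries did not overlap with HNF4G-DMSO lower, beside 25.1% of all tested genes. In the uncorrected fit the abundant androgen-induced genes ZBTB10 (0.17 ± 0.13) and FKBP5 (31538 and 31644 against 28622 and 32864, -0.04 ± 0.11) were not called, and TMPRSS2, also induced by androgen, was at 1305 and 1379 against 1951 and 1932 (0.53 ± 0.10, not called). Kallikreins KLK4 (12034 and 11489.8 against 9019.6 and 5848, -0.70 ± 0.25) and KLK15 (124 and 146 against 80.5 and 86.4, -0.69 ± 0.20) were not called either. TMPRSS2 was called higher and KLK4 lower with the GC and length correction.

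Of the falls in genes with a mean of 50 or more, the largest was that of CGA, the alpha subunit shared by the glycoprotein hormones. It was at 255 and 278 normalized counts in GFP-DMSO and 57.2 and 55.3 in HNF4G-DMSO, a log2 difference of -2.22 ± 0.14 (limma adjusted p = 0.000739), and was the only fall that passed in all 8 fits that left out a library. ZG16, a lectin of goblet cell granules, was at 41.6 and 52.5 against 5.82 and 7.78 (-2.63 ± 0.45) and CYP4F8, a prostaglandin hydroxylase of seminal fluid, at 36.8 and 41.4 against 8.73 and 7.78 (-2.12 ± 0.32). The lncRNA PRPF31-AS1 was read at 8.71 and 10.1 in GFP-DMSO and at 0 in both HNF4G-DMSO libraries, which is at least 6.84-fold lower at a floor of 3 reads over the group, and since strand was not stated its reads cannot be told apart from those of its antisense partner. The lncRNA LINC00511 was higher, at 414 and 449 against 878 and 899 (1.04 ± 0.15). The stathmin STMN4 (-1.63 ± 0.24), the ATPase family member ATAD3C (-1.64 ± 0.19), the fatty acid binding protein FABP7 (-1.18 ± 0.17), the protease ADAMTS1 (-0.77 ± 0.11), DDIT4L (-0.79 ± 0.11), the tetraspanin TSPAN1 (-0.76 ± 0.10), the calcium sensor STIM1 (-0.62 ± 0.11) and the T cell receptor gamma constant gene TRGC1 (-0.76 ± 0.12), a transcript also known from prostate epithelium, were also lower. Over the falls, 1 and 2 of these 21 passed without GFP-DMSO number 1 or number 2 (limma adjusted p up to 0.397 and 0.374), and 7 and 4 without HNF4G-DMSO number 1 or number 2 (up to 0.183 and 0.334).

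Among genes of the endoplasmic reticulum, the chaperone HSPA5, or BiP, was at 63824 and 58728 normalized counts in GFP-DMSO and 39708 and 44338 in HNF4G-DMSO and fell by 0.55 on the log2 scale (limma adjusted p = 0.036). CREB3L1, a membrane-bound factor of the secretory pathway, was at 198 and 195 normalized counts in GFP-DMSO and 106 and 99.4 in HNF4G-DMSO (-0.93 ± 0.16). HSPA5 was the only called gene of 26 in ATF4 signalling and the unfolded protein response, which had a median of -0.09. With the GC and length correction 9 of the 26 were called lower and 2 higher, beside 5.02% lower and 3.59% higher among all tested genes. Other chaperones and folding enzymes of the list, chosen after their values were seen, were PDIA4 at 28187 and 26125 against 20170.4 and 19188 (-0.46 ± 0.08), MANF at 12325 and 10389 against 7953 and 8794 (-0.44 ± 0.11), CRELD2 at 8794 and 8223 against 5708 and 3881 (-0.85 ± 0.23) and SDF2L1 at 1586 and 1405 against 962 and 546 (-1.04 ± 0.37). None of these was called in the uncorrected fit and all 4 were called lower with the correction. Both HNF4G-DMSO libraries were below both GFP-DMSO libraries in each. Over the whole list, 12 of the 26 had a log2 difference above 0 and 14 below. The libraries did not overlap with HNF4G-DMSO higher in 7 of the 26 and lower in 10, beside 26.6% and 25.1% of all tested genes. The stress factor ATF4 itself was at 24643 and 23340.3 against 24170.2 and 24509 (0.02 ± 0.07) and DDIT3 at 1661 and 1515 against 1394 and 1339.6 (-0.21 ± 0.10), neither of them called.

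**Figure D3:**
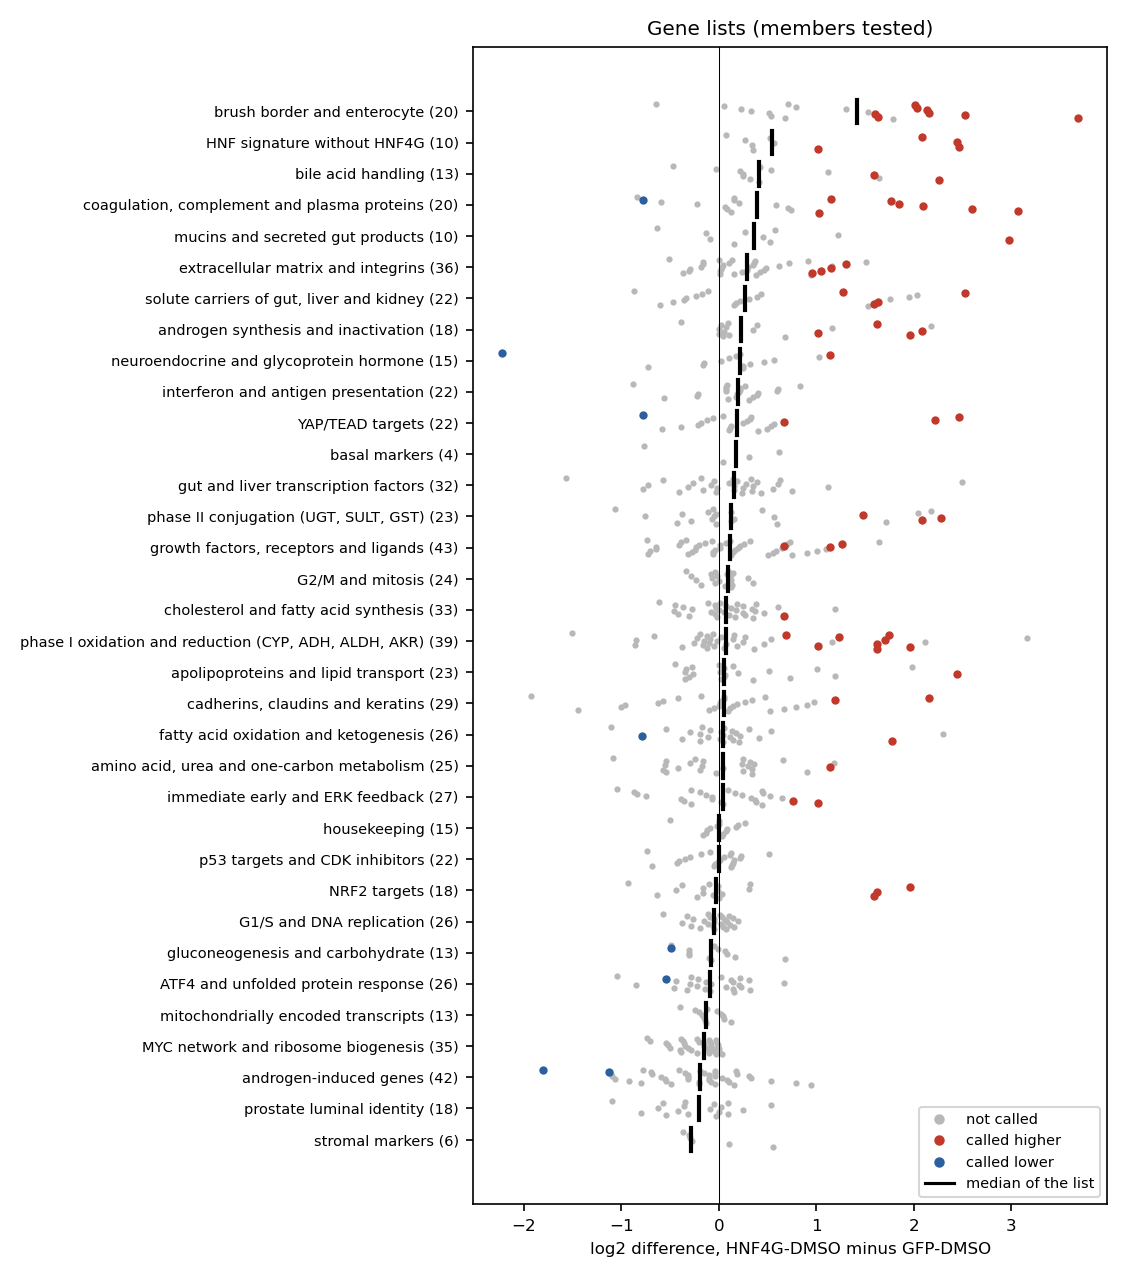
Log2 difference between HNF4G-DMSO and GFP-DMSO (horizontal axis) for each tested member of the gene lists with at least 4 tested genes, with called members in red (higher) or blue (lower), others in grey and the list median as a black bar. Brush border genes have the highest median, 1.42, while androgen-induced and luminal genes lie at -0.20 with 2 and 0 members called in this uncorrected fit.

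The lists without a called gene in the uncorrected fit covered lineage, growth and defence. No gene passed among 32 gut and liver transcription factors (median 0.15), where SOX9 was at 2163 and 2076 against 3413 and 2843 (0.56 ± 0.11), NR2F2 at 1326 and 1265 against 1789 and 1719 (0.44 ± 0.10) and FOXA1 at 15535 and 15185 against 15193 and 14470.4 (-0.05 ± 0.07). With the GC and length correction 7 of the 32 were called higher, SOX9 and NR2F2 among them, and 2 lower. For this and the next lists, the corrected fit called 3.59% of all tested genes higher and 5.02% lower. None of 18 prostate luminal identity genes was called (median -0.20), with KRT8 at 29779.8 and 29787 against 23137 and 16107 (-0.63 ± 0.23) and the ETS factor SPDEF at 5061 and 4870.1 against 3261 and 1660.2 (-1.09 ± 0.39). With the GC and length correction 10 of the 18 were called lower, KRT8 and SPDEF among them, and 1 higher. Of 35 genes of the MYC network and ribosome biogenesis none was called, 33 lay below 0 and the median was -0.15. With the correction 8 of them were called lower. In the uncorrected fit none was called of 26 G1/S genes (median -0.05), 24 G2/M genes (0.09), 22 p53 targets and CDK inhibitors (-0.0018) or 22 interferon and antigen presentation genes (0.20). Among the most abundant members of these lists were NPM1 (-0.10 ± 0.10) and NCL (-0.10 ± 0.08) of the nucleolus, PCNA (-0.05 ± 0.07) and MCM7 (-0.09 ± 0.10) of DNA replication, TOP2A (0.35 ± 0.14) and MKI67 (0.0026 ± 0.13) of dividing cells, CCND1 (0.08 ± 0.07), the inhibitors CDKN1A (-0.69 ± 0.15) and CDKN1B (-0.09 ± 0.08), and B2M (0.27 ± 0.10) of antigen presentation. The 15 housekeeping genes (median -0.0015), 13 mitochondrially encoded transcripts (-0.13), 6 stromal markers (-0.29) and 4 basal markers (0.18) held none either. By an unadjusted limma p under 0.05, 1360 of all tested genes were higher (7.61%) and 810 lower (4.53%), so the absence of a call in a list is no sign that its members were equal.

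**Figure D4:**
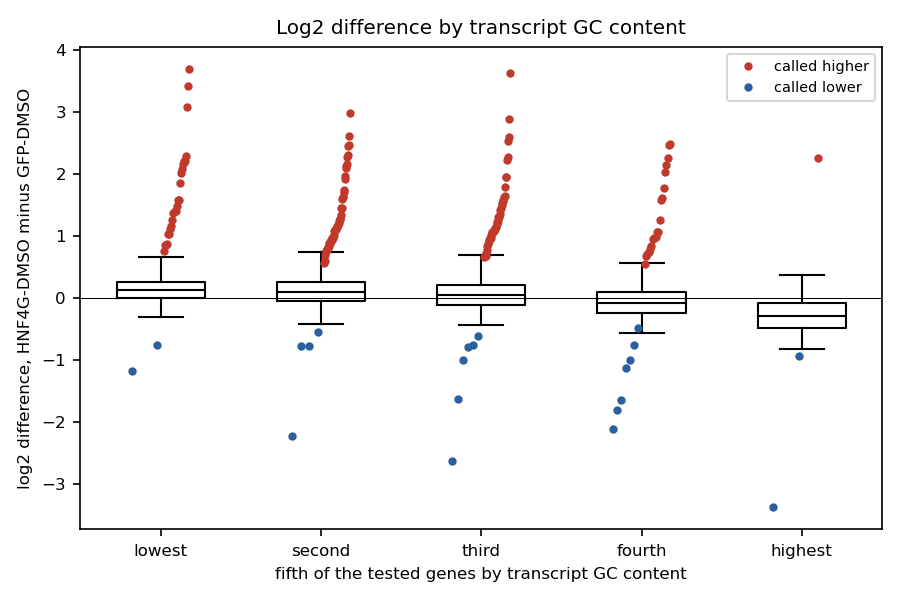
Log2 difference between HNF4G-DMSO and GFP-DMSO (vertical axis) in 5 equal classes of transcript GC content (boxes with median and quartiles, whiskers from the 5th to the 95th percentile of the tested genes), with called genes as red (higher) or blue (lower) points. The medians fall from 0.12 in the lowest class to -0.29 in the highest, where 1 gene was called higher and 2 lower.

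The log2 difference moved with the GC content of the transcripts. Over 5 classes of equal size from the lowest to the highest GC content its median was 0.12, 0.09, 0.04, -0.09 and -0.29. This came mostly with 1 library. Against the mean of GFP-DMSO, the medians of HNF4G-DMSO number 1 ran from 0.02 to -0.05 between the lowest and the highest class, and those of number 2 from 0.22 to -0.53. Genes called higher had a median transcript GC content of 44.3% and a median length of 4002.5 bases, those called lower 50.1% and 2730 bases, and all tested genes 47.7% and 3252 bases. From the lowest to the highest class, 25, 51, 43, 20 and 1 genes were called higher and 2, 4, 6, 7 and 2 lower. All 161 were called again with GC content and length corrected. In that fit 12 of the 20 brush border genes were called higher, 7 of the 10 signature genes and 11 of the 36 matrix genes. The share of all tested genes called higher went from 0.783% to 3.59% as well, so the gain in calls was not particular to these lists.

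Some called genes lie side by side. Within 500 kb of each other there were 19 pairs of called genes, made of 29 genes, and in all 19 both members differed in the same direction. KLK3 (chromosome 19, 50854915 to 50860764) and KLK2 (chromosome 19, 50861568 to 50880567) lie 0.804 kb apart and were both lower. ALB (chromosome 4, 73397114 to 73421482) and AFP (chromosome 4, 73431138 to 73456174), relatives in the albumin family, are 9.66 kb apart and were both higher, the RefSeq start of AFP used above lying inside its GENCODE span. CAV1 and MET on chromosome 7 are 111 kb apart and GLIS3 and SLC1A1 on chromosome 9 142 kb, each pair with no tested gene between and both members higher. The paralogous clusters of AKR1C genes on chromosome 10 and UGT2B genes on chromosome 4 gave 5 of the 19 pairs. Neither the number of pairs nor their agreement in direction was compared with a random placement of genes. Most called genes were higher in any case, 140 of 161, and some genes are in several pairs.

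The same genes were then read in the libraries that received ABBV-075, which the comparison above does not use, although the lines are the same and the fit shares its estimate of the spread. HNF4G itself was at 206 and 213 normalized counts in GFP-ABBV-075 and 43972 and 34116 in HNF4G-ABBV-075, beside 10109.5 and 12104 in HNF4G-DMSO. The 2 treatments thus compare unlike levels of HNF4G, and the part of this in the differences below was not tested. Under ABBV-075, 293 genes were higher (1.64% of those tested) and 60 lower (0.336%) in HNF4G-ABBV-075 than in GFP-ABBV-075. Of the 140 genes called higher under DMSO, 115 were called higher again and all 140 had a difference above 0. Of the 21 called lower, 15 were called lower again and all 21 were below 0. ANKS4B differed by 3.63 ± 0.36 under DMSO and 5.50 ± 0.36 under ABBV-075, CLRN3 by 2.46 ± 0.35 and 5.03 ± 0.35, CCN2 by 2.47 ± 0.13 and 4.18 ± 0.13 and MYO1A by 1.60 ± 0.14 and 3.38 ± 0.14. KLK3 differed by -1.81 ± 0.17 and -2.41 ± 0.17 and CGA by -2.22 ± 0.14 and -2.29 ± 0.14. Genes called only under DMSO included SERPINB5, a serpin of epithelial cells (2.15 ± 0.21 and 0.94 ± 0.21), and LGR5 (1.14 ± 0.15 and 0.47 ± 0.15).

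**Figure D5:**
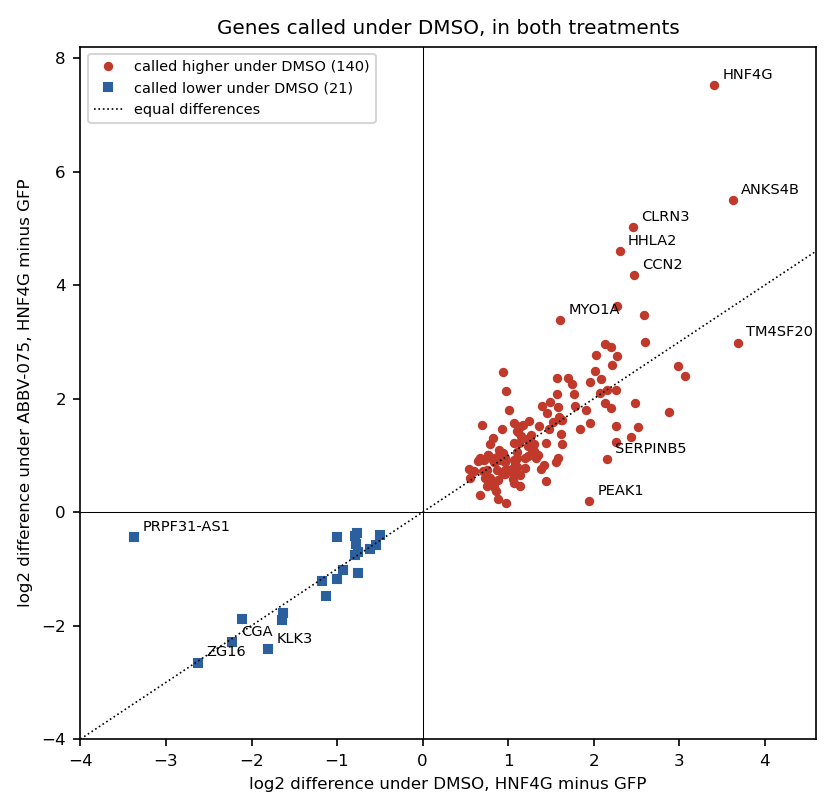
Log2 difference between HNF4G and GFP cells under DMSO (horizontal axis) and under ABBV-075 (vertical axis) for the 140 genes called higher (red circles) and the 21 called lower (blue squares) under DMSO, with the line of equal differences dotted. All 161 lie on the same side of 0 in both, and HNF4G stands apart at 3.41 and 7.52.

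The difference between the treatments itself was tested as an interaction in the same fit. It passed for 2 of the 17876 genes (0.0112%), HNF4G and VIL1. HNF4G differed by 3.41 ± 0.15 under DMSO and by 7.52 ± 0.15 under ABBV-075, an interaction of 4.11 ± 0.21 (limma adjusted p = 0.000814). VIL1 differed by 0.53 ± 0.10 and 2.25 ± 0.10, an interaction of 1.71 ± 0.14 (limma adjusted p = 0.0179). For all other genes, SERPINB5 and LGR5 included, a call in 1 treatment alone does not show that the effect of the transgene differed between them.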

How the data were processed

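Poly-A RNA of 22Rv1 cells was sequenced in 8 libraries, whose labels give transgene and treatment. Reads were aligned by the authors with STAR against hg38 (version 2.6 per the submitters' processing notes, another one per the methods). Which gene counter, strand setting and annotation were used was not given in the sources used here. What was deposited by the authors is a signal, the normalized count: reads of a gene over the size factor of its library, without length scaling. All values above 0 (100%) lay within 0.01 of a whole multiple of 1 step per library, so whole reads were recovered (31508275 to 40262678 a library), and no spike-in was analysed, so values are relative.

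Of 57605 entries, 2 duplicates were dropped, each with the same identifier and the same values as another. Genes with a mean of at least 10 were tested and held at least 99.9% of the reads. Values were taken as log2 with a pseudocount of 1, and 4 group means over all 8 libraries were fitted by limma 3.58.1 with an intensity trend in R 4.3.3, two-sided, and called at a Benjamini-Hochberg adjusted p under 0.05 over all tested genes. Differences on this scale understate the change of low genes. edgeR 4.0.16 (quasi-likelihood) and DESeq2 1.42.0 were run on the recovered reads as alternatives, beside other pseudocounts, filters, scalings, a replicate block, a GC and length correction and fits that each leave out 1 library, where the remaining library of a pair is assumed to have the spread of the other groups. The procedure was tested on simulated data. Symbols came from the file, and 17861 tested genes were matched to GENCODE 44 for position, GC content and length.

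The comparison and the gene lists were chosen with earlier results of these data known. Lists share genes, and the study itself singled out CCN2, CLRN3, F5, MUC13 and VIL1. Genes were named by a rule: HNF4G and the HNF signature, the 30 largest rises and falls among called coding genes with a mean of at least 50 over the 4 DMSO libraries and no overlap between the groups, up to 6 called members each way and the 3 most abundant uncalled members of each list, the 10 called genes of highest mean, and up to 4 called non-coding genes each way. Every other gene named was chosen after its values were seen. Some genes are counted in the totals and lists and are not reported singly.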

Additional observations from a re-analysis of the deposited data

Results flagged for a closer look

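For HNF4G, the gene of the transgene itself, and for VIL1 the difference between HNF4G and GFP cells was not the same in the 2 treatments. HNF4G was higher in HNF4G than in GFP cells by 3.41 ± 0.15 on the log2 scale under DMSO and by 7.52 ± 0.15 under ABBV-075, a difference of 4.11 (limma interaction, adjusted p = 0.000814). For VIL1, which encodes villin, the values were 0.53 ± 0.10 and 2.25 ± 0.10, a difference of 1.71 (limma interaction, adjusted p = 0.0179). In both genes all HNF4G libraries were above all GFP libraries in each treatment.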

How the results depend on the processing

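The count of called genes moved widely with the processing. Against 161 calls (140 higher, 21 lower), DESeq2 gave 275 (221 and 54), edgeR 34 lower, no filter on low values 10 lower, the correction for GC content and length 1539 (642 and 897), and leaving out both libraries of low GC content 1165 (619 and 546). Leaving out 1 library at a time gave 16 to 329 calls, 14 to 259 higher and 1 to 70 lower, lowest without GFP-DMSO number 2 or number 1 and highest without HNF4G-ABBV-075 number 2, of the pair with the widest spread. All 161 genes kept their direction in each of these 8 fits, and HNF4G ranged from 3.28 to 3.54 over all alternatives and was called in each. ANG, which was not called at 0.08, was at -0.025 without HNF4G-DMSO number 1 and at 0.18 without number 2, and at 0.23 once GC content and length were corrected. The cause of these moves was not tested.

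The labels give the groups the same replicate numbers. Deviations of same-numbered GFP-DMSO and HNF4G-DMSO libraries correlated at 0.128 and those of the other group pairs at -0.595 to 0.053. The main fit used no replicate block. The mitochondrial share of reads was 3.01% in GFP-DMSO and 2.93% in HNF4G-DMSO number 1, and 1.90% and 1.88% in the libraries numbered 2. Under ABBV-075 it was 3.43% and 3.49% in GFP cells and 2.10% and 1.82% in HNF4G cells. Whether same-numbered libraries share a batch or culture was not tested. With the replicate block 72 genes were called (67 higher and 5 lower), and with the block and the GC and length correction 784 (397 and 387).

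With 2 libraries a group, the SD of the log2 difference between the libraries of a pair was 0.313 in GFP-DMSO and 0.420 in HNF4G-DMSO. Scaling by trimmed means, median of ratios or quantiles moved the median of all genes by less than 0.1 on the log2 scale. Poly-A capture, unknown strand and near-identical gene copies limit single genes, and 1 line per transgene limits what the comparison can be set against.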
